A study of Homo sapiens with 2 samples.

Results

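The spliceosomal small nuclear RNAs (snRNAs) and their copies were taken as the features whose symbol starts with RNU followed by a digit, or with RNVU. This gave 50 of the 14914 features in the table. By type they were 13 U1 copies (RNVU1 names are variant U1 genes), 2 of U2, 2 of U4, 4 of U5, 23 of U6, 1 of U11, 1 of U12, 1 of U4atac and 3 of U6atac. No U7 symbol was among them. By symbol, 21 were genes and 29 ended in P, the mark of a pseudogene. The annotation, GENCODE v29 on GRCh38, holds 1817 snRNA symbols of this form, of which 1277 are U6. All 50 matched it as snRNA genes.

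The libraries are RNA immunoprecipitation sequencing (RIP-seq) of HUH7, an established human hepatocellular carcinoma line with no genetic change or treatment named in the labels. The series asks which RNAs are bound by CSTF2 (CstF-64), the subunit through which the cleavage stimulation factor binds RNA downstream of poly(A) sites. One library came from RNA recovered with CSTF2 (IP, 3220045 assigned reads) and the other from input RNA (Input, 9517885 assigned reads), and a mock precipitation was not analysed here. As each group is 1 library, the spread between replicates is unknown, no test was made, and every difference describes these 2 libraries. The mRNA of CSTF2 itself had 487 RPKM in IP RNA and 6.97 RPKM in Input RNA (3429 and 145 reads), and whether the cells behind the IP carried added CSTF2 was not tested. All 12 hepatocyte-lineage genes checked were listed in the Input (1.76 to 310.7 RPKM), and of 7 blood, stromal and endothelial markers 3 were listed, at 0.576 to 1.55 RPKM.

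Each snRNA is the core of a small ribonucleoprotein particle (snRNP). U1 pairs with the 5′ splice site of an intron and U2 with its branch point. U4, U5 and U6 join as the tri-snRNP, after which U6 replaces U1 at the splice site. U11, U12, U4atac and U6atac do the same work, with U5, on the rare minor introns. Most of these RNAs are made by RNA polymerase II and carry a site for the ring of Sm proteins. U6 and U6atac are made by RNA polymerase III and end in a run of T, whose transcript holds the LSm ring. U1 snRNP also protects transcripts from early cleavage and polyadenylation, the reaction in which CSTF2 takes part.

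The sequences below are RNAs on which the values turn, 1 for each of several types, with a second U1 copy because it held the most U1 reads. Each is the GENCODE v29 transcript, 5′ to 3′, with the Sm-type site in capitals, or for U6atac the closing T run. The loci on GRCh38 are chr1:16514122-16514285, minus strand for RNU1-1, chr1:148038753-148038916, minus strand for RNVU1-7, chr11:62841619-62841809, minus strand for RNU2-2P and chr12:120293097-120293237, minus strand for RNU4-1. RNU11 lies at chr1:28648600-28648733, plus strand, RNU4ATAC at chr2:121530881-121531007, plus strand and RNU6ATAC at chr9:134164439-134164564, minus strand.
RNU1-1: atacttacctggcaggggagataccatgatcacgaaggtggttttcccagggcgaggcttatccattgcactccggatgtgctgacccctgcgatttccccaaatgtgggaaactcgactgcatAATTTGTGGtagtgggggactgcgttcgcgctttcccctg
RNVU1-7: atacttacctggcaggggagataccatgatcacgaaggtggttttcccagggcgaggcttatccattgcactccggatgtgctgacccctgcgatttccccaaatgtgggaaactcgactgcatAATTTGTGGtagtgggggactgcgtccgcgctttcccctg
RNU2-2P: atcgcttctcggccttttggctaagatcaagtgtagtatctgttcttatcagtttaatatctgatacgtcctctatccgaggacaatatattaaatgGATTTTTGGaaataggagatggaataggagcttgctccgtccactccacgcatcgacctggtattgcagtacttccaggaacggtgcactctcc
RNU4-1: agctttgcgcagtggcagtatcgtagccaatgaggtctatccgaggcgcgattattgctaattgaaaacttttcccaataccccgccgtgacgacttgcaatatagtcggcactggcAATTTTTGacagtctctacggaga
RNU11: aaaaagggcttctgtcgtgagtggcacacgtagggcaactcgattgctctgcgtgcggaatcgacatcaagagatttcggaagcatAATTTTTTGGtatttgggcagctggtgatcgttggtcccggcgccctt
RNU4ATAC: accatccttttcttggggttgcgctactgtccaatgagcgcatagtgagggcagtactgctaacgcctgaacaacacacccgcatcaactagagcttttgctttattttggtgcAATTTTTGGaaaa
RNU6ATAC: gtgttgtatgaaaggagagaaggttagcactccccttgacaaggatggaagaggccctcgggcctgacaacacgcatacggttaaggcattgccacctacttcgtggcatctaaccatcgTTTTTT

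As a whole the snRNAs were lower in the CSTF2 IP, and U1 was the exception. Values are RPKM, reads scaled to gene length and library size, and the log2 ratio is log2((IP + 1)/(Input + 1)) of RPKM, which understates the change of low features. Of the 50 members, 37 were lower in the IP by 2-fold or more on that scale, 1 was higher by as much and 12 were within 2-fold. The same held, among the 9880 features whose mean RPKM reached 1, for 6.83% (lower) and 9.88% (higher). Of the 37, only 11 had an IP read. The other 26 appear to have entered the table through their Input level alone, as do RNU6-7 and RNU6ATAC25P among the 11. A lower IP value was in part fixed for these, so the count of 37 does not by itself measure a loss in the IP. Short features were often low: of 68 others of 90 to 200 bases, 54.4% were lower by 2-fold or more and 19.1% higher, and their median log2 ratio was -1.38. The median was -3.39 for the snRNA members and 0.17 for all features. The part of fragment length in these values was not tested.

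The zeros carry much of that median. In the IP, 26 members (52%) had no assigned read, against 1.07% of all features and 26.5% of the 68 other short ones. Their Input reads ran from 10 to 474, with a median of 16. A count of 0 allows up to 3 reads in the IP library, which makes 11 of the 26 at least 2-fold lower. With every 0 placed at that bound the median of the 50 was -0.85 on the log2 scale of the plain ratio. The table appears to list only features with a minimum level in 1 library (the lowest was 1.05 CPM, the reads scaled to library size alone), and 29 members reached it in the Input alone, so these had to be lower in the IP to some degree. Of the others, 20 reached it in both libraries and 1, RNU6-36P, in the IP alone.

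The snRNA members took 897 IP reads, 0.0279% of the library, and 7907 Input reads, 0.0831%, a share 2.98-fold lower in the IP (95% counting interval 2.78 to 3.20). Without U1 the share was 5.82-fold lower (5.26 to 6.46). These are shares of a library, so less snRNA and more of other RNAs cannot be told apart. U1 made up 55.6% of the snRNA reads of the IP library and 13.4% of those of the Input. U2 went the other way, with 30.1% in the IP and 46.6% in the Input. U6 went from 11.5% of the snRNA reads in the Input to 1.67% in the IP, and U6atac from 9.52% to 0.892%.

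**Figure D1:**
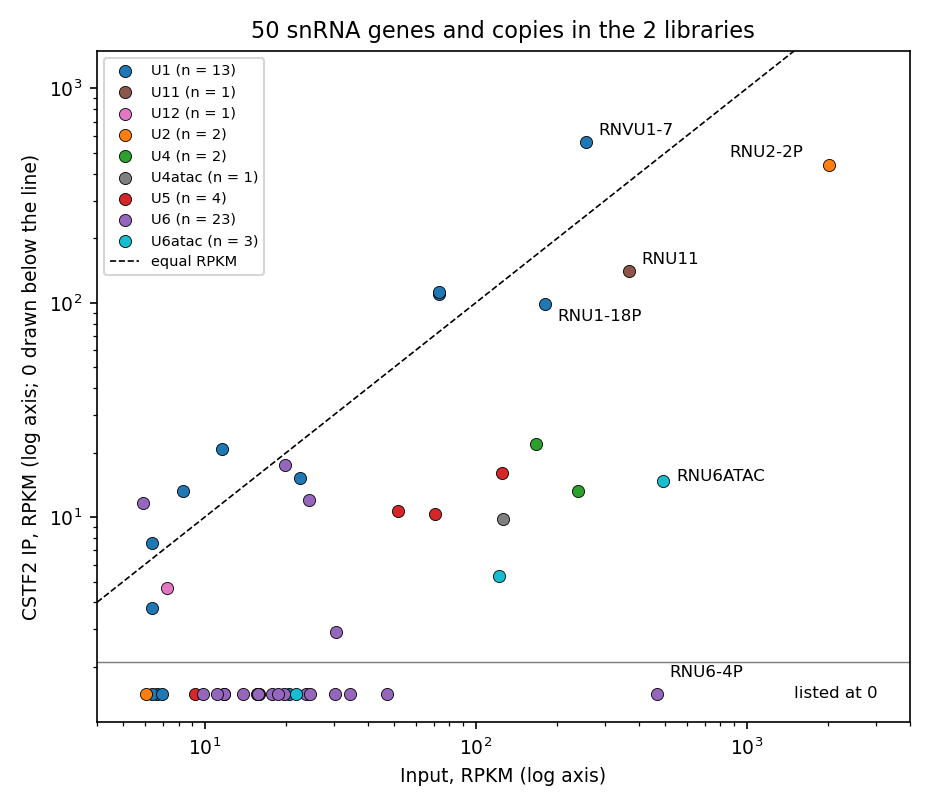
RPKM of each of the 50 members in the Input (x) and in the CSTF2 IP (y), both on log axes, coloured by snRNA type, with members at 0 in the IP drawn below the grey line and the dashed line marking equal values. RNVU1-7 lies above the dashed line at 564 RPKM in the IP and 255 in the Input, while RNU2-2P, RNU11 and RNU6ATAC lie below it and 26 members have no IP read.

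U1 recognises 5′ splice sites, and its copies together took 499 IP reads and 1057 Input reads. That is 1.40-fold higher in the IP (1.25 to 1.55). The direction of the sum depends on 1 copy: without RNVU1-7 it was 0.902 (0.766 to 1.06). That remainder is mixed. RNU1-18P had a ratio of 0.545 on 52 and 282 reads, while the 5 copies with the RNU1-1 sequence summed to 1.44 (1.17 to 1.76). With the libraries scaled on a trimmed mean of all features, the ratio of all U1 copies was 1.11 (0.994 to 1.23), with an interval that includes 1.

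RNVU1-7, a variant U1 gene, reached 564 RPKM in IP RNA (298 reads) and 255 RPKM in Input RNA (398 reads). It was the only member at least 2-fold higher, at 2.21-fold (1.90 to 2.58), and no member was once the log2 ratios were centred on the median of all features. Its sequence differs from RNU1-1 by 1 base, T150C, counted from the first base of RNU1-1. A read that does not cover that base fits RNU1-1, RNU1-2 and RNU1-4 equally, and the sources used here do not say how such reads were assigned.

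Of the U1 members, 5 share 1 sequence of 164 bases: RNU1-1, RNU1-2, RNU1-4, RNVU1-18 and the pseudogene-named RNU1-27P. GENCODE holds 8 snRNA genes with it. RNU1-2 had 109.8 RPKM in IP RNA and 73.0 RPKM in Input RNA (58 and 114 reads). RNU1-4 had 111.7 RPKM and 73.0 RPKM (59 and 114 reads). RNU1-1 was lower in the IP, at 15.1 RPKM and 22.4 RPKM (8 and 35 reads). RNVU1-18 had 11 and 18 reads and RNU1-27P 7 and 13. Summed over these identical copies, 143 IP and 294 Input reads gave a ratio of 1.44 (1.17 to 1.76). The split of reads among identical copies carries no information on which gene was transcribed.

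The U1 copies farther from that sequence were mostly low in reads. RNU1-18P, on chromosome 6 with 18 substitutions against RNU1-1, had 98.5 RPKM in IP RNA and 180.7 RPKM in Input RNA (52 and 282 reads), a ratio of 0.545 (0.397 to 0.735). RNU1-67P had 0 and 32 reads, at least 3.61-fold lower. RNVU1-19 had 0 and 11 reads and RNVU1-15 2 and 10. RNU1-11P, with 7 differences, had 4 and 10 reads, a ratio of 1.18 (0.271 to 4.10), and RNU1-43P and RNU1-117P 0 and 10 each. Of the 7 copies with more than 5 differences, 5 were listed through the Input alone and had to be lower in the IP, so their ratios show nothing about sequence distance. By symbol, the 7 U1 genes summed to a ratio of 1.84 (1.63 to 2.08) and the 6 pseudogenes, 3 of them listed through the Input alone and led by RNU1-18P, to 0.522 (0.393 to 0.683).

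**Figure D2:**
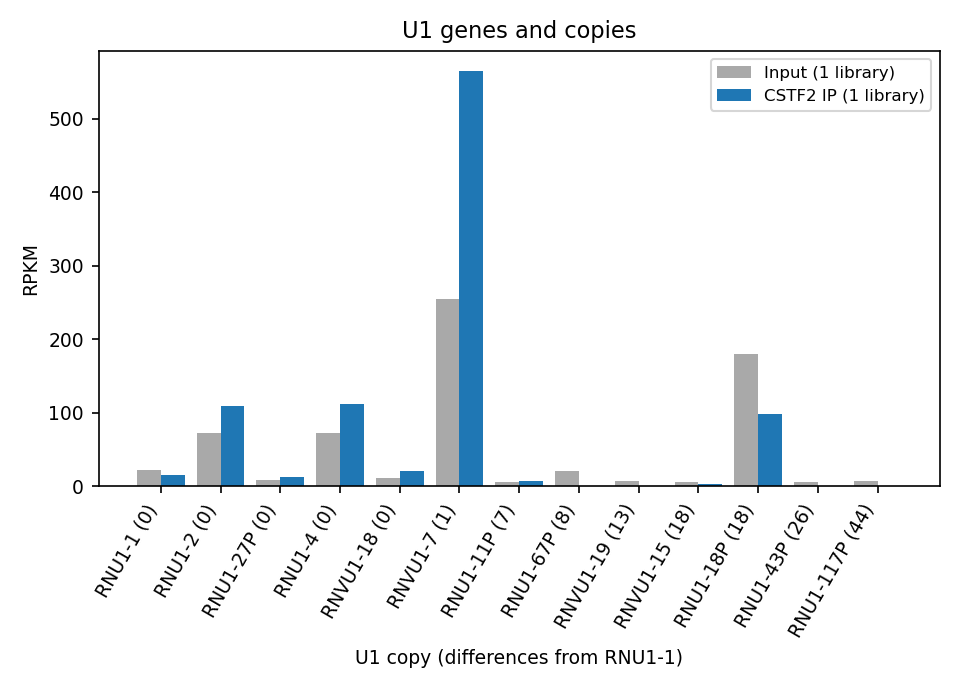
RPKM of the 13 U1 members in the Input (grey) and the CSTF2 IP (blue), 1 library each, ordered by identity to RNU1-1 with the number of differences in brackets. RNVU1-7, with 1 difference, is the highest in both libraries, and RNU1-18P, with 18 differences, is the highest of the copies that are lower in the IP.

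A row named only U1 lies outside the rule and was chosen after its values were seen. It had more reads than the 13 copies together, 3000 IP and 5362 Input reads over 2589 bases, or 360 RPKM and 218 RPKM. Its ratio was 1.65 (1.58 to 1.73). No GENCODE v29 gene has that bare name, so the copies it covers cannot be listed. A row named only U6 had 5 and 23 reads, a ratio of 0.643 (0.191 to 1.73).

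U2, which pairs with the branch point, was represented almost wholly by RNU2-2P. Despite the P in its symbol, that locus is known to be transcribed into a U2 RNA. It had 439 RPKM in IP RNA and 2022 RPKM in Input RNA (270 and 3676 reads), the most reads of any member in the Input. It was 4.61-fold lower in the IP (4.07 to 5.23). Its sequence has 8 differences from RNU2-1, a gene not analysed here. Of these, 4 are substitutions, G108A, C109A, C170T and C187T, counted from the first base of RNU2-1. A read that covers none of the 8 differences fits RNU2-1 equally, and how such reads were assigned is not stated. The RNU2-2P values can therefore not be credited to that locus alone. RNU2-6P had 0 IP and 11 Input reads.

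RNU2-2P lies in an exon of WDR74, a gene for a WD-repeat protein, on the same strand. WDR74 was listed with 312 IP reads and 3765 Input reads, a ratio of 0.245 (0.218 to 0.275). If every RNU2-2P read was also credited to WDR74, 42 and 89 reads were left for the rest of that gene, a ratio of 1.39. The low ratio of WDR74 in the table can therefore not be separated from that of the snRNA.

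U4, which holds U6 inactive until the spliceosome is activated, was among the lowest of the major types. RNU4-1 had 13.2 RPKM in IP RNA and 238.4 RPKM in Input RNA (6 and 320 reads), 18.0-fold lower (8.20 to 49.5). RNU4-2 had 22.0 RPKM and 166.9 RPKM (10 and 224 reads), 7.58-fold lower (4.04 to 16.0). Their intervals overlap, and a difference between these genes was not detectable at this depth. They lie next to each other on chromosome 12 and differ by the 4 substitutions C37T, G88A, C99A and C113T (RNU4-1 base first). Together they were 11.5-fold lower (7.02 to 20.3).

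U5, which holds the exons at the catalytic centre, was 6.91-fold lower over its 4 members (4.05 to 12.8). RNU5A-1 had 16.1 RPKM in IP RNA and 125.0 RPKM in Input RNA (6 and 138 reads), 7.78-fold lower. RNU5B-1 had 10.7 RPKM and 51.6 RPKM (4 and 57 reads), 4.82-fold lower. RNU5E-1 had 10.4 RPKM and 70.9 RPKM (4 and 81 reads), 6.85-fold lower. The intervals of all 3 genes overlap. RNU5A-8P had 0 and 10 reads, at least 1.13-fold lower, so its place among the U5 members is not known.

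U6, which forms the catalytic core, had the most members. Of the major types it had the lowest ratio of summed reads, though its interval overlaps that of U4 (7.02 to 20.3). All 23 copies together had 15 IP reads and 912 Input reads, 20.6-fold lower (12.4 to 36.9), and 19 of the 23 had none in the IP. RNU6-4P, named a pseudogene, had 0 RPKM in IP RNA and 465 RPKM in Input RNA (0 and 474 reads), at least 53.5-fold lower. It is the U6 member with the most Input reads, and without it the type was 9.88-fold lower (5.92 to 17.8). That is less far than U4 at 11.5-fold, so the order of U6 and U4 is not settled. Of the other 22 copies, 19 were listed through the Input alone, so a low ratio for them was fixed in part by the listing.

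RNU6-4P has the same 107 bases as RNU6-1, RNU6-2 and RNU6-9, and GENCODE holds 7 snRNA genes of that sequence. RNU6-1 had 12 Input reads, RNU6-2 had 25 and RNU6-9 had 35, all with 0 in the IP. Summed, the 4 identical copies had 0 IP and 546 Input reads, at least 61.6-fold lower. As for U1, the split of reads among identical copies carries no information on which gene was transcribed. The 474 Input reads of RNU6-4P can thus not be credited to that locus. RNU6-7 and RNU6-8 share a sequence with 1 difference from RNU6-1. RNU6-7 had 1 IP read and 31 Input reads, a ratio of 0.0953 (0.00234 to 0.572), and RNU6-8 had 0 and 19.

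The IP reads of U6 came from 4 copies. RNU6-395P had 6 IP and 20 Input reads, RNU6-826P 4 and 24, RNU6-36P 4 and 6, and RNU6-7 the 1 above. RNU6-36P was the highest by log2 ratio (0.87), but it was listed through the IP alone, so a higher ratio was fixed in part. The intervals of all but RNU6-7 include 1. RNU6-395P overlaps an exon of POLR2D, an RNA polymerase II subunit gene on the opposite strand. RNU6-826P lies in an intron of IGF2BP1.

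Of the U6 copies with 0 IP reads and at least 20 Input reads, RNU6-12P had 48, RNU6-695P 30, RNU6-16P 24 and RNU6-27P 20. Those were at least 5.41-fold, 3.38-fold, 2.71-fold and 2.26-fold lower. The remaining copies had 10 to 18 Input reads and none in the IP, where a bound of 3 IP reads is close to the Input level.

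**Figure D3:**
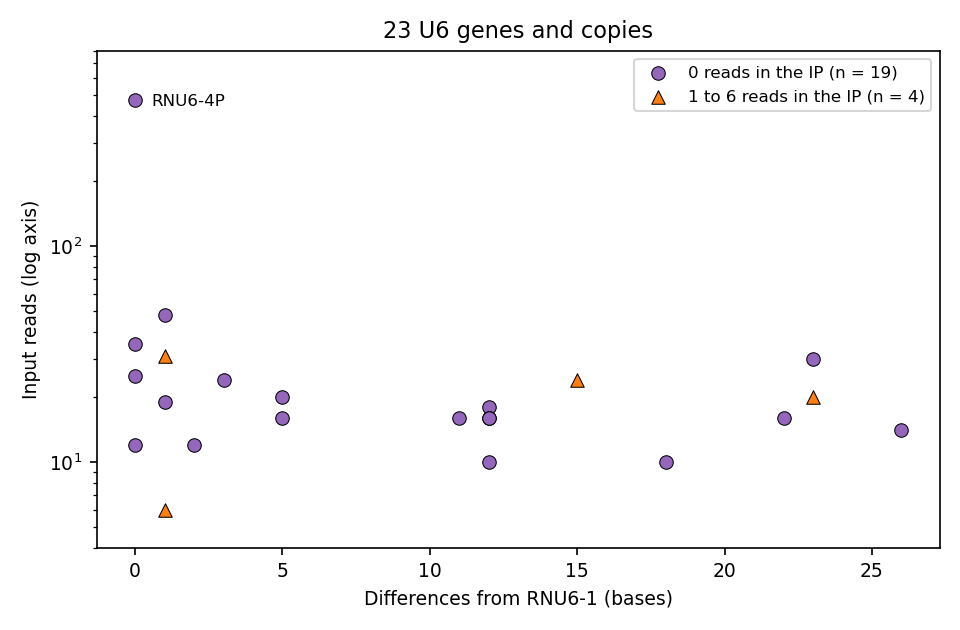
Input reads (log axis) of the 23 U6 members against the number of bases by which each differs from RNU6-1, with circles for the 19 copies at 0 reads in the IP and triangles for the 4 with 1 to 6. RNU6-4P stands at 474 Input reads with no difference from RNU6-1, and the other 22 copies lie between 6 and 48.

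The minor spliceosome RNAs were not alike. U11, which recognises the 5′ splice site of minor introns as U1 does for major ones, had 141.4 RPKM in IP RNA and 369 RPKM in Input RNA (61 and 470 reads). It was 2.61-fold lower (1.99 to 3.46), less far than U2, U4, U5 or U6 by intervals from single reads. With reads taken as pairs its interval was 1.78 to 3.94, which overlaps those of U2 (3.88 to 5.54) and U5 (3.27 to 17.5) but not those of U4 and U6. U4atac (RNU4ATAC) had 9.78 RPKM and 125.7 RPKM (4 and 152 reads), 12.9-fold lower (4.92 to 47.8). RNU6ATAC had 14.8 RPKM and 493 RPKM (6 and 591 reads), 33.3-fold lower (15.2 to 91.2), the largest fold among members with an IP read. RNU6ATAC25P had 2 and 136 reads and RNU6ATAC38P 0 and 26. Summed, U6atac was 31.8-fold lower (16.1 to 74.0).

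The U12 row, for the RNA that pairs with the branch point of minor introns, had 4.68 RPKM in IP RNA and 7.28 RPKM in Input RNA (10 and 46 reads). Its ratio of 0.643 had an interval that includes 1 (0.289 to 1.29). The length behind its RPKM was 664 bases, whereas RNU12 has 150. The noncoding gene Z93241.1, whose exon contains RNU12 on the same strand, has 664 bases of exon. The row therefore appears to cover that longer transcript and cannot be read as U12 alone. For the other 49 members the length in the table equalled that of the annotation.

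**Figure D4:**
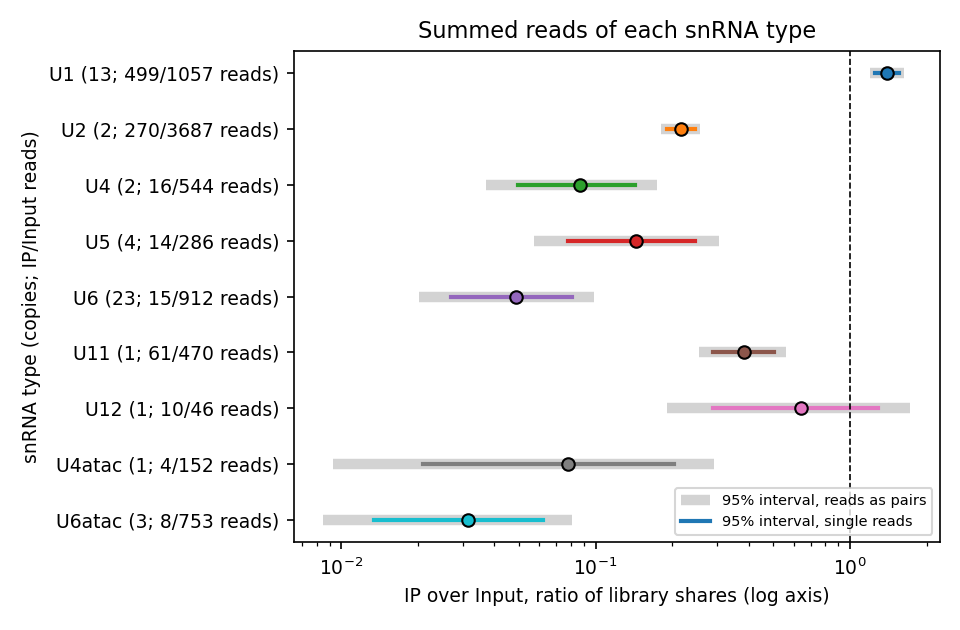
Ratio of library shares, IP over Input, of the summed reads of each snRNA type on a log axis, with the 95% counting interval from single reads (coloured) and from reads taken as pairs (grey), and the dashed line at 1. U1 lies at 1.40, U11 at 0.384 and U2 at 0.216, U4, U5, U6, U4atac and U6atac lie between 0.0314 and 0.145, and the interval of U12 spans 1.

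By ring, the members with an Sm-type RNA other than U1 had 375 IP and 5185 Input reads, 4.68-fold lower (4.21 to 5.21). U6 and U6atac, the LSm types, had 23 and 1665 reads, 24.5-fold lower (16.3 to 38.7). These sums are led by RNU2-2P in the first group and by RNU6ATAC and RNU6-4P in the second. Of the 23 U6 copies 20 were listed through the Input alone, as were RNU6ATAC25P and RNU6ATAC38P. In the first group only RNU2-6P and RNU5A-8P were. The listing thus fixed in part a lower sum for the LSm types, and the gap between the groups cannot be read apart from it. With U1 included, the Sm-type members were 2.42-fold lower (2.25 to 2.60). The minor types together, with U11 and the U12 row kept, were 5.79-fold lower (4.64 to 7.32). U2, U4, U5 and U6 together were 5.83-fold lower (5.20 to 6.55), and these intervals overlap. U1, at 1.40-fold higher in the IP, was left out of the second of these sums. The overlap depends on that choice and does not show that major and minor types were alike.

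Read numbers were even in 67.9% of the features with an IP read and 64.6% of those with an Input read. Among the snRNA members they were even in 19 of 24 and 39 of 50. Counting both ends of a read pair would give such an excess, but whether this was done is not stated and was not tested. If it was, the intervals from single reads are too narrow. With single reads the interval of the ratio lay below 1 for 29 members (20.1% of all features) and above 1 for 3, RNVU1-7, RNU1-2 and RNU1-4 (36.1% of all features). With reads taken as pairs it lay below 1 for 17 members (13.4% of all features) and above 1 for RNVU1-7 alone (26.7% of all features). The interval of summed U1 was then 1.20 to 1.63, and that of the identical U1 copies 1.07 to 1.92.

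The counts of snRNA members held under most other settings. With the pseudocount at 0.1 RPKM, 38 were lower (10.4% of all features) and 1 higher (18.5%). At 5 RPKM, 37 were lower (2.99%) and 1 higher (1.88%). With a mean of 5 RPKM required, 31 of 44 were lower (11.6%) and 1 higher (9.35%). With at least 20 reads required, 20 of 30 were lower (6.5%) and 1 higher (6.89%). Centred on the median of all features, 39 were lower (9.55%) and 0 higher (6.92%). At 1.5-fold, 40 were lower (15%) and 5 higher (26%), and at 4-fold 36 lower (1.51%) and 0 higher (1.53%). The share of lower members was above the background in each of these, though the listing of most of them through the Input bears on it.

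Of the 50 members, 13 lie in an intron of a gene that is itself listed, and 10 of these were lower by 2-fold or more, near the 74% of all members. Of the 12 genes that hold them, 8 had a mean of 1 RPKM or more, and of these 1 was lower and 1 higher by 2-fold or more (6.83% and 9.88% of all features). CROCC, which holds RNU1-2 and RNU1-4, had 69 IP reads and 56 Input reads, a ratio of 3.64 (2.52 to 5.28). RNU4ATAC lies in CLASP1 on the opposite strand, and CLASP1 had a ratio of 1.88 (1.47 to 2.41). RNU6-37P had 0 and 12 reads and its gene KIF1B 191 and 217, a ratio of 2.60. RNU1-67P lies in SLC25A43 (ratio 1.22), RNU6-429P in CTNND2 (1.58) and RNU6-826P in IGF2BP1 (1.64). RNU5A-8P lies in HHAT (1.48) and RNU6ATAC25P in HYDIN (2.22, on 6 and 8 reads). The lower genes were CBX1 with RNU6-1201P (0.484), PARP16 with RNU5A-1 (0.328, on 2 and 18 reads), MACROD2 with RNU6-228P (0.622) and MAP3K2 with RNU6-1147P (0.925). The part of reads from these genes in the members' values was not tested.

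ACTTACCTG, the U1 stretch that pairs with the 5′ splice site, was in 9 of the 13 U1 members and in 2.98% of the 1677 GENCODE snRNA genes of 90 to 200 bases. It was not found on the other strand of a member. The RNA-binding domain of CSTF2 is known to favour stretches rich in G and U. TGTG was on the transcript strand of all 13 U1 members, of 13 of the other 37 and of 50.4% of the GENCODE snRNA genes, and on the other strand of 29 members and 75.7%. TGTGT, which contains it, was on the transcript strand of 3 members, all U1, and of 7.10% of those genes, and on the other strand of 6 members and 31.4%. Those 3 were RNU1-43P, RNU1-67P and RNVU1-19, all at 0 reads in the IP on 10, 32 and 11 Input reads. All were listed through the Input alone, so a low IP value was fixed in part. Their zeros therefore show nothing about TGTGT. RNVU1-7 has 3 TGTG matches and no TGTGT, and U2 and U4 members have neither.

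The mRNAs for snRNP proteins and for making snRNAs did not share the pattern of the RNAs. Of 136 names, 129 were listed and 111 passed the filter on mean RPKM. Of these, 7 were lower by 2-fold or more and 6 higher, where 6.83% and 9.88% of all features were so. Their median was 0.13 where that of all features was 0.17. With the ratios centred on the median of all features the split was 12 lower and 3 higher (9.55% and 6.92% of all features). Fold values below are ratios of RPKM. The mRNAs named are the 2 highest and 2 lowest of each list by log2 ratio with the pseudocount. On the plain ratio an unnamed mRNA can therefore lie farther out, as USP4 at 2.79 (34 and 36 reads) did in the tri-snRNP list.

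Among mRNAs for proteins of the U1, U2, U4/U6 and U5 particles, 5 of 6, 10 of 16, 11 of 14 and 6 of 10 had a log2 ratio above 0, as did 60.4% of all features. Past 2-fold, 1 of U1 and 2 of the tri-snRNP were higher and 2 of U2 lower. For U1, SNRNP70, which binds its first stem-loop, was 2.17-fold higher (1.96 to 2.41) and the associated LUC7L 1.78-fold, with SNRPA at 1.20 and SNRPC at 0.532 (0.408 to 0.685). For U2, the partner factor U2AF2 was 1.87-fold and SF3B1, which clamps the branch point, 1.97-fold higher, and SF3B6 was 2.41-fold and SNRPB2 3.33-fold lower. In the tri-snRNP, PRPF6 was 3.84-fold (3.25 to 4.53) and SART1 2.20-fold higher, with PPIH at 0.802 and SNRNP27 at 0.600. For U5, the helicases SNRNP200 and DDX23 were 2.06-fold (under 2-fold on the pseudocount scale) and 1.87-fold higher, and AAR2 and ECD had ratios of 0.704 and 0.645 with intervals that include 1.

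The mRNAs of the ring proteins had low medians, though few passed 2-fold. All 7 Sm mRNAs had a log2 ratio below 0 (median -0.82), as did 39.6% of all features, and 1 was lower by 2-fold or more. SNRPB was at 0.942, SNRPD3 at 0.765, SNRPE 2.08-fold lower (less than 2-fold on the pseudocount scale) and SNRPD1 2.46-fold lower (2.08 to 2.93). Of 7 LSm mRNAs 6 were below 0 (median -0.87) and 2 were lower by 2-fold or more, with LSM8 at 1.03, LSM4 at 0.557, LSM3 3.80-fold lower (2.98 to 4.89) and LSM7 5.20-fold lower (2.98 to 9.95). In the minor spliceosome list (12 mRNAs, median 0.00) ARMC7 was 2.29-fold higher on 24 and 31 reads, less than 2-fold on the pseudocount scale. SNRNP25 at 0.565 and SCNM1 at 0.233 were the lowest by log2 ratio. By the plain ratio ZMAT5, at 0.431 on 7 and 48 reads, was below SNRNP25. The list also holds DROSHA, at 1.65, an enzyme known for microRNA processing. For the U7 snRNP, which cuts histone mRNAs, only SLBP at 0.728 and CASP8AP2 at 1.38 passed the filter.

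Assembly factors (20 mRNAs, median 0.16) had no member past 2-fold on the pseudocount scale, from SRRT at 2.03 and TGS1, which makes the snRNA cap, at 1.72 to COIL at 0.610 and STRAP at 0.545. Among factors that finish or modify snRNAs, TUT1, which adds the U tail of U6, was 7.49-fold higher (4.02 to 14.7) on 38 and 15 reads and MEPCE 1.91-fold, while PUS7 at 0.994 and SSB (La), which binds new U6, at 0.904 had intervals that include 1. In snRNA transcription, SNAPC4, of the complex that binds snRNA promoters, was 3.62-fold (2.64 to 4.96) and BRF2, for the polymerase III factor of the U6 promoter, 4.01-fold higher (1.91 to 8.65, on 19 and 14 reads). TBP was at 0.687 and SNAPC5 2.51-fold lower (1.63 to 4.02).

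**Figure D5:**
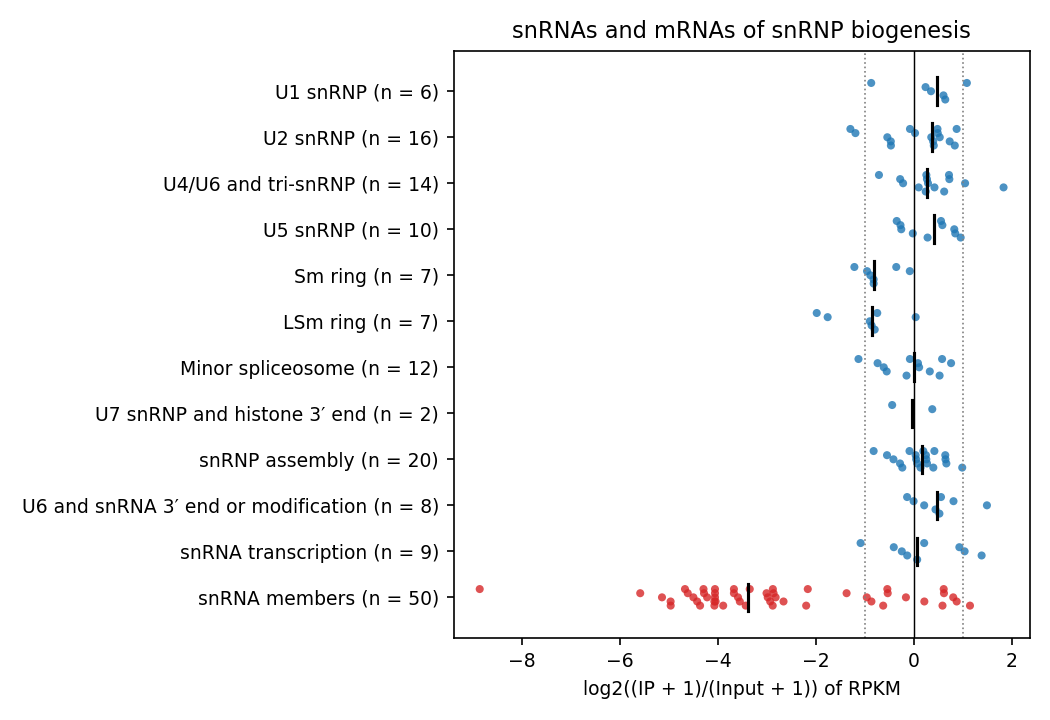
log2((IP + 1)/(Input + 1)) of RPKM for each mRNA in the lists of snRNP proteins and snRNA biogenesis (blue) and for the 50 snRNA members (red), with a black bar at each median and dotted lines at 2-fold. The Sm and LSm medians lie at -0.82 and -0.87, the snRNA members at -3.39 and the other lists between -0.04 and 0.48.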

How the data were processed

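RIP-seq was made from HUH7 cells, 1 CSTF2 IP library and 1 Input library. Per the labels' protocols, RNA was extracted with Trizol, fragmented, copied from random hexamers, size-selected on beads and amplified by PCR; strand is not stated, so overlapping and antisense features are not told apart. FastQC 0.12.0 and hg38 are named by the submitters' processing notes. The aligner, the counting program and how reads with several matches were treated are not stated in any source read here. The deposited table holds, per its headers, RPKM for each library and a log2 fold change that the authors took as IP over Input.

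Both were used together to recover whole reads and gene lengths, for 14912 of 14914 features within 0.01 reads, and the recovery was tested on simulated data. Depth was 3220045 and 9517885 reads. Ratios have exact conditional (Clopper-Pearson) 95% intervals that cover counting error only. Reads were amplified by PCR with no molecular identifier named, so they need not be separate molecules. The main measure used a pseudocount of 1 RPKM, a mean of at least 1 RPKM and a 2-fold threshold. Loci and sequences are from GENCODE v29 (GRCh38). Differences between copies came from global alignment (edlib 1.3.9.post1). Type sums hold listed copies only.

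The members and lists were chosen with earlier results of these data known. Named were all members not ending in P. Those ending in P were named with at least 20 reads, at an end of their type or inside a listed gene. Of each mRNA list, the 2 highest and 2 lowest by log2 ratio with the pseudocount were named. Further members complete the account. Some sequences are not reported here. Alternatives were other pseudocounts, filters, thresholds, scalings and sets of copies.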

Additional observations from a re-analysis of the deposited data

How the results depend on the processing

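The 37 members at least 2-fold lower became 20 of 30 with at least 20 reads, where fewer members were counted. The 1 higher member became 0 when centred on the median of all features and at 4-fold, and 5 at 1.5-fold. The median log2 ratio of -3.39 became -5.98 and -1.98 with pseudocounts of 0.1 and 5 RPKM. Trimmed mean scaling gave ratios of 1.11 for U1 and 0.172 for U2. U1 was 1.84 in genes, 0.522 in pseudogenes and 0.902 without RNVU1-7, the last 2 turning its direction. U6 was 0.0242 in genes and 0.101 without RNU6-4P. U2 without RNU2-2P and the U5 pseudogene had a ratio of 0, on 11 and 10 Input reads. Of the snRNP and biogenesis mRNAs, the 7 lower became 11, 2 and 12, and the 6 higher 11, 1 and 3, with pseudocounts of 0.1 and 5 RPKM and with centring; the higher were 3 with a filter of 5 RPKM. The cause of these shifts was not tested. The other 33 values kept their direction and size, within 1.5 times for counts and within the counting or rank interval otherwise. Taking reads as pairs was chosen after the data were seen. No paired analysis was possible because each group has 1 library. Depth limits every copy with 10 to 18 Input reads, for which 0 IP reads do not show a 2-fold difference in most cases.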
